A study of Mus musculus with 2 samples.

Results

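Stathmins and tubulin isotypes are the 10 genes described here, 4 stathmins (*Stmn1* to *Stmn4*), 4 β-tubulins (*Tubb2a*, *Tubb2b*, *Tubb3* and *Tubb6*) and 2 α-tubulins (*Tuba1a* and *Tuba4a*). They were taken by gene symbol from the 21829 genes of the expression tables, and they had been chosen from a comparison of the same 2 libraries in which *Stmn2* was already known to differ most. Their KO against WT values are therefore a description. The cells were C2C12, an immortalised mouse myoblast line that grows as single cells and can fuse into myotubes, cultured in serum-containing growth medium. WT was the unedited line. KO cells came from the same line after CRISPR–Cas9 editing of *Gne*, the enzyme gene that starts sialic acid synthesis, and were grown up from isolated single cells. How many clones went into the sequenced library is not given in the sources used here. Polyadenylated RNA was sequenced from 1 library of each line, so no difference below has a replicate check. Clonal variation and the edit of *Gne* are confounded, and in bulk RNA fewer cells of a type and less RNA per cell cannot be told apart.

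Microtubules are hollow polymers of α- and β-tubulin dimers. Mammals have several genes for each, called isotypes, whose proteins are alike in the body and differ mostly in the acidic tail at the end of the chain. Stathmins bind free tubulin dimers and promote shrinkage of microtubule ends. *Stmn1* is found in most dividing cells, whereas *Stmn2*, *Stmn3* and *Stmn4* are known mainly from neurons, as is *Tubb3*, whose protein is the target of the neuronal TUJ1 antibody.

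*Stmn2* was high in WT and nearly missing from the KO-labelled library, and *Tubb3* was much lower there as well. The other members that were above the detection filter were within 1.5-fold between the libraries. Total α-tubulin RNA was alike in both libraries, and total β-tubulin RNA was slightly higher in the KO-labelled library.

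*Stmn2* differs from *Stmn1* in a stretch at its start that anchors the protein to Golgi-derived membranes through palmitoylated cysteines. In the canonical GENCODE vM39 transcripts, *Stmn1* has 149 codons before the stop, *Stmn2* 179, *Stmn3* 180 and *Stmn4* 189. *Stmn2* has 2 cysteine codons and *Stmn1* has 0. Both lie in coding exon 2, which is shown because it holds the part that *Stmn1* lacks. It is at chr3:8606901-8606996 in GRCm39, on the plus strand, and capitals mark the cysteine codons read in frame.
Stmn2 exon 2: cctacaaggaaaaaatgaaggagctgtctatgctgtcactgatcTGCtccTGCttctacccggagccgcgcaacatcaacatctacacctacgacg

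The tails of the tubulin proteins are encoded at the end of the coding sequence. Where along the coding sequence these isotypes differ most was not measured. The last 60 coding bases before the stop codon are shown, in exon 4 of each gene, for 3 β-tubulins, to let the isotypes be told apart. Capitals mark bases that differ from *Tubb2a* at the same distance from the stop codon. In GRCm39, that of *Tubb2a* is at chr13:34258454-34258513 and that of *Tubb2b* at chr13:34311457-34311516, both on the minus strand. That of *Tubb3* is at chr8:124148359-124148418 on the plus strand.
Tubb2a: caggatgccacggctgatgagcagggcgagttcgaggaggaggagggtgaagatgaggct
Tubb2b: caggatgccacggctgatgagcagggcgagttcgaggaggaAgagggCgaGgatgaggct
Tubb3: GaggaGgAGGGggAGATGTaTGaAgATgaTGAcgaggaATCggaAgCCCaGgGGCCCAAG

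Counted by distance from the stop codon, without gaps, the *Tubb2b* tail differed from that of *Tubb2a* at 3 of 60 bases and the *Tubb3* tail at 36. *Tubb3* has 450 codons and *Tubb2a* 445, so bases at the same distance need not correspond. The 36 is thus not comparable with the identities that follow, which come from alignments with gaps. Over the whole coding sequence, *Tubb2a* and *Tubb2b* were 96.5% identical, and *Tubb3* was 84.6% identical to *Tubb2a*. *Tuba1a* was 98.3% identical to *Tuba1b* and 97.6% to *Tuba1c*, against 85.3% to *Tuba4a*. The authors' counting estimated how reads shared by such genes divide. The split between *Tubb2a* and *Tubb2b*, and among *Tuba1a*, *Tuba1b* and *Tuba1c*, is therefore uncertain, and their sums are given below.

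Levels are in FPKM, read fragments scaled by transcript length and library size. The tables do not name their unit, which was inferred from the values and is not settled. Changes are log2((KO + 1)/(WT + 1)), called the log2 fold change below, which makes the change of low genes look smaller than it is. A gene was counted as more than 2-fold lower or higher when this value passed 1 in size. *Gne* itself stood at 6.67 FPKM in WT and 7.34 FPKM in the KO-labelled library, so its RNA does not check the label. Of 11 myoblast markers, 7 averaged 1 FPKM or more over both libraries (past the filter below). The summed level of the 11 was 262 FPKM in WT and 67.1 FPKM in the KO-labelled library. Of these, 4 were listed at 0 in the latter (*Myod1*, *Pax7*, *Mymk* and *Mymx*), and *Pax7* was listed at 0 in WT as well. As a rough guide to relative sequencing depth, KO-to-WT ratios were taken over the 406 genes between 0.02 and 0.1 FPKM in both libraries. The most frequent ratio was near 1.13, in an interval that held 52 of these genes. Of the 11 myoblast markers, 9 were lower in the KO-labelled library, and their part in the results below was not tested.

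**Figure D1:**
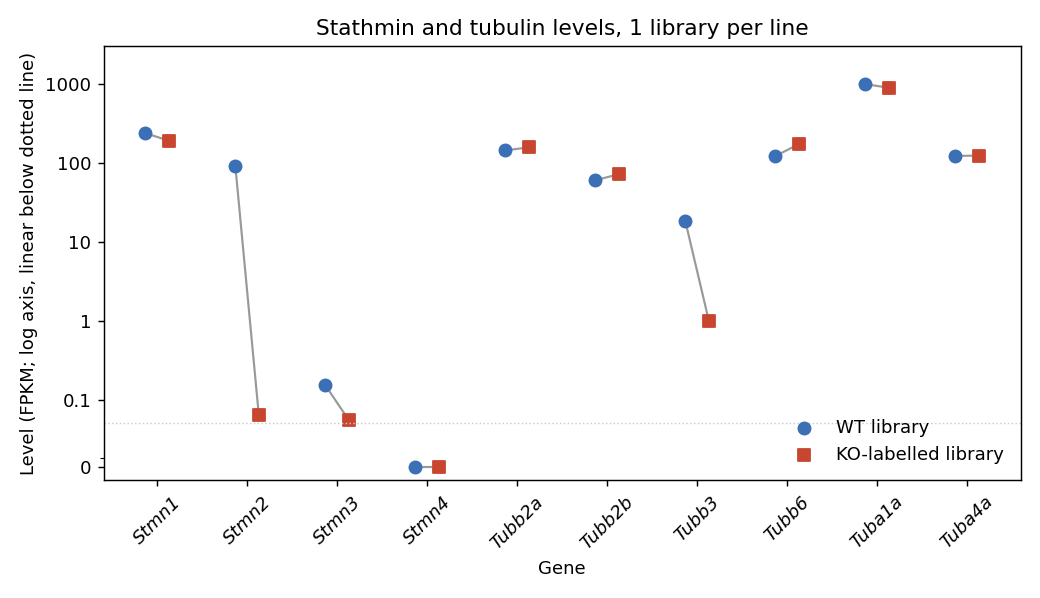
Level of each of the 10 genes in FPKM (log axis, linear below the dotted line) in the WT library (circles) and the KO-labelled library (squares), 1 library per line and hence no error bars. *Stmn2* drops from 89.3 to 0.064 FPKM and *Tubb3* from 17.985 to 0.997 FPKM, *Stmn3* and *Stmn4* are near or at 0 in both, and the lines of the other 6 genes are almost level.

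Of the 10 members, 8 were past the filter, and *Stmn3* and *Stmn4* did not. Among the 8, 2 were more than 2-fold lower and 0 were more than 2-fold higher in the KO-labelled library. Over all 10542 genes past the filter, 362 were lower, which is 3.43%, and 299 were higher, which is 2.84%, or 6.27% in either direction. *Stmn2* and *Tubb3* were past the filter only through WT, and the members were chosen with these values known, so nothing is read from the count. The other 6 were above 1 FPKM in both libraries, with log2 fold changes between -0.31 and 0.50. The quartiles over all genes were -0.21 and 0.23, with a median of 0.0061.

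**Figure D2:**
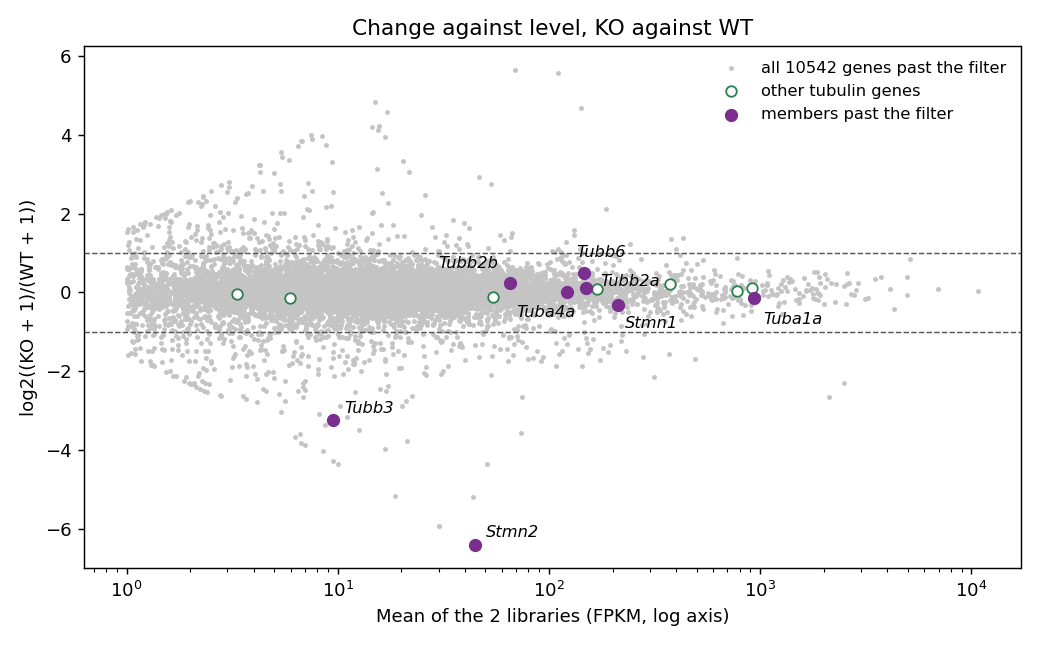
Log2 fold change against the mean of both libraries in FPKM (log axis) for the 10542 genes past the filter (grey), the 8 members among them (filled, named) and the other tubulin genes (open circles), with dashed lines at 2-fold. *Stmn2*, at -6.41, lies at the bottom of the plot, *Tubb3* is at -3.25, and the remaining tubulins and *Stmn1* lie between the dashed lines.

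*Stmn2*, also called SCG10, is a stathmin of growing neurites. Its level was 89.3 FPKM in WT and 0.064 FPKM in the KO-labelled library, a ratio of 1395 without a pseudocount and a log2 fold change of -6.41. In WT it ranked 1000 by level among the 10542 genes, and in the KO-labelled library 10510. With the pseudocount of 1, it was the gene with the lowest log2 fold change of all genes tested. *Stmn2* occupies 8574151 to 8626667 of chromosome 3 in GRCm39, on the plus strand. With a level so close to 0 in 1 library, the size of the fold and its rank depend on the pseudocount. The log2 fold change of *Stmn2* was -9.09 with 0.1 and -4.22 with 5.

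*Stmn1*, the stathmin of dividing cells, was the most abundant family member in both libraries. It stood at 236 FPKM in WT and 189.6 FPKM in the KO-labelled library, a log2 fold change of -0.31. The difference, -19.5%, was short of 2-fold. *Stmn1* lies on chromosome 4 from 134195021 to 134201882. *Stmn3* was at 0.151 and 0.055 FPKM, and *Stmn4* was listed at 0 in both libraries. Neither of these neuronal stathmins was thus above a trace in either line, whereas *Stmn2* was abundant in WT.

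The summed level of the 4 stathmins was 325 FPKM in WT and 189.8 FPKM in the KO-labelled library. *Stmn1* made up 72.5% of this sum in WT and 99.9% in the KO-labelled library, and *Stmn2* made up 27.5% and 0.034%. The sum differed by -41.6%, to which *Stmn2* contributed -89.2 FPKM and *Stmn1* -45.99 FPKM.

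*Tubb3*, the β-tubulin of neurons, was the only gene more than 2-fold apart among the 4 α-tubulins, the 6 β-tubulins and the 3 γ-, δ- and ε-tubulins past the filter. Its level was 17.985 FPKM in WT and 0.997 FPKM in the KO-labelled library, 18.04 times lower, with a log2 fold change of -3.25. By log2 fold change it ranked 19 from the lowest of all genes past the filter. The gene lies on chromosome 8 from 124138163 to 124150092. Even in WT it made up only 1.23% of the summed β-tubulin level, and 0.063% in the KO-labelled library.

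The other β-tubulins pointed the opposite way by small amounts. *Tubb6*, a broadly expressed and more divergent isotype, was 121 FPKM in WT and 171 FPKM in the KO-labelled library, a log2 fold change of 0.50, the largest positive value among the members. *Tubb2a* was 143 and 156 FPKM, and *Tubb2b* was 59.9 and 71.2 FPKM, log2 fold changes of 0.12 and 0.25. Since these genes are near-identical, their sum is firmer, and it was 203 FPKM in WT and 227 FPKM in the KO-labelled library, a log2 fold change of 0.16. Of the β-tubulins outside the member list, *Tubb5*, the most abundant, was 770.0 and 785 FPKM, and *Tubb4b* was 348 and 402 FPKM. *Tubb4a* stood at 0.044 and 0.203 FPKM, and *Tubb1*, the platelet isotype, was listed at 0 in both libraries. All 5 β-tubulins past the filter other than *Tubb3* were thus somewhat higher in the KO-labelled library, by less than 2-fold.

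Summed over the 8 β-tubulin genes in the tables, the level was 1459.5 FPKM in WT and 1587 FPKM in the KO-labelled library, which is 8.71% higher. The difference of -16.99 FPKM in *Tubb3* was smaller in size than that of 50.1 FPKM in *Tubb6*. *Tubb6* made up 8.30% of the β-tubulin sum in WT and 10.8% in the KO-labelled library.

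*Tuba1a*, an α-tubulin best known from developing brain, had the highest level of all members, 985 FPKM in WT and 887 FPKM in the KO-labelled library, with ranks of 85 and 92 among the genes tested. Its log2 fold change was -0.15. *Tuba4a*, an isotype known from muscle, brain and platelets, was 121 and 123 FPKM, a log2 fold change of 0.016, the smallest change among the members past the filter. Outside the member list, *Tuba1b* was 876 and 954 FPKM and *Tuba1c* was 164 and 175 FPKM. The sum of *Tuba1a*, *Tuba1b* and *Tuba1c* was 2025 FPKM in WT and 2015 FPKM in the KO-labelled library, so the shift between *Tuba1a* and *Tuba1b* nearly cancelled. *Tuba3a* was at 0.023 FPKM in WT and listed at 0 in the KO-labelled library, *Tuba3b* was at 0.020 and 0.023 FPKM, and *Tuba8* and *Tubal3* were listed at 0 in both. All 8 α-tubulins together came to 2147 FPKM in WT and 2138 FPKM in the KO-labelled library, a difference of -0.398%.

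**Figure D3:**
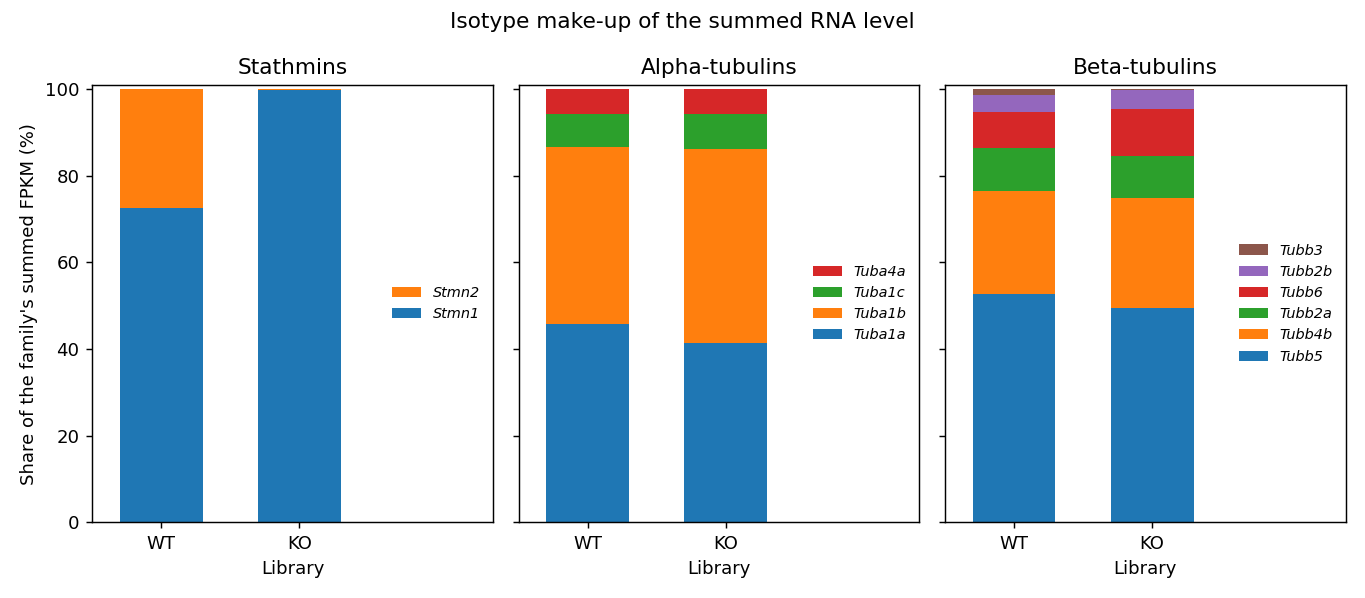
Share of the summed FPKM (%) taken by each stathmin, α-tubulin and β-tubulin gene in the WT library and the KO-labelled library, for genes with at least 0.5% in either. The *Stmn2* block (27.5% in WT) and the thin *Tubb3* block (1.23% in WT) are not visible in the bars of the KO-labelled library, and the order of the α-tubulins *Tuba1a* and *Tuba1b* turns.

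By level, the members past the filter ran in WT from *Tuba1a* through *Stmn1*, *Tubb2a*, *Tuba4a*, *Tubb6*, *Stmn2* and *Tubb2b* to *Tubb3*. *Tuba4a* and *Tubb6* differed by less than 1 FPKM in WT. In the KO-labelled library the order was *Tuba1a*, *Stmn1*, *Tubb6*, *Tubb2a*, *Tuba4a*, *Tubb2b*, *Tubb3* and *Stmn2*. *Tubb6* stood above *Tubb2a* and *Tuba4a* there, and *Stmn2* came last. No spread is known for either line, so which neighbours in these orders differ was not tested.

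The γ-, δ- and ε-tubulins, which serve microtubule nucleation and centrioles, had slightly lower values in the KO-labelled library where they were past the filter. *Tubg1* was 56.4 and 52.2 FPKM, *Tubd1* 6.32 and 5.60 FPKM and *Tube1* 3.40 and 3.29 FPKM. *Tubg2* was at 0.018 FPKM in WT and listed at 0 in the KO-labelled library.

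Other genes of the microtubule system were taken from lists chosen by function, with earlier results of these data known. Leaving out the members, the 10 lists held 104 genes of the tables, of which 77 were past the filter. Of these, 1 was more than 2-fold lower (1.30%) and 2 were more than 2-fold higher (2.60%), and their median log2 fold change was 0.062. The shares over all genes were 3.43% and 2.84%. The gene on the lower side was *Map2*, which encodes a dendritic microtubule-associated protein. It was 4.25 FPKM in WT and listed at 0 in the KO-labelled library. The genes on the higher side were *Tbcel*, a relative of a tubulin folding cofactor, at 3.40 and 9.32 FPKM, and *Map1lc3a*, an LC3 protein of the autophagosome that was first found bound to microtubules, at 16.1 and 35.9 FPKM.

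The lists that follow are short, and their counts are to be read beside the 6.27% of all genes beyond 2-fold in either direction. None of the 9 genes of the γ-tubulin ring complex list was beyond 2-fold, with a median of -0.066. *Mzt1* was 40.3 and 39.6 FPKM and *Mzt2* 25.5 and 32.9 FPKM. All 8 folding cofactors were past the filter, with a median of 0.12, and *Tbcel* was the 1 beyond 2-fold.

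Enzymes that modify tubulin, such as tyrosine ligases, glutamylases and deacetylases, numbered 15 past the filter. Of these, 0 were beyond 2-fold in either direction, with a median of 0.062. *Ttll12* was 57.6 and 40.2 FPKM and *Sirt2* 27.8 and 33.4 FPKM. The 14 structural microtubule-associated proteins past the filter had a median of 0.20, and *Map2* and *Map1lc3a* were the genes beyond 2-fold. Plus-end tracking proteins numbered 15, with none beyond 2-fold and a median of 0.15. Here *Macf1* was 59.6 and 49.3 FPKM and *Mapre1* 40.6 and 45.3 FPKM. Severing and depolymerising proteins numbered 9, also with none beyond 2-fold, and had a median of -0.025. *Fignl1* was 34.8 and 39.1 FPKM, and *Kif18b* 23.7 and 22.4 FPKM.

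**Figure D4:**
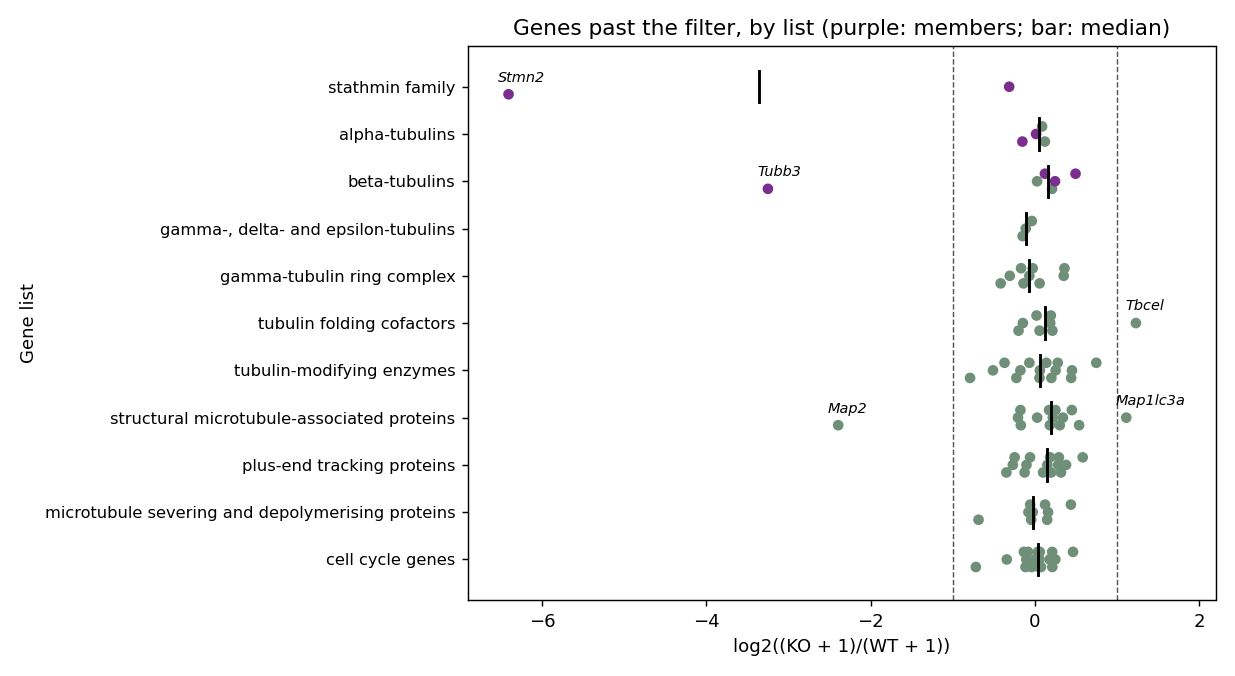
Log2 fold change of each gene past the filter, by list, with members in purple, other genes in green, the median of each list as a black bar and dashed lines at 2-fold. *Stmn2*, *Tubb3* and *Map2* lie to the left of the dashed lines and *Tbcel* and *Map1lc3a* to the right, and the other genes lie between them.

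*Stmn2*, *Tubb3* and *Map2* are all known as neuronal genes. Of 8 defining neuronal markers, none reached a mean of 1 FPKM in these libraries. Their summed level was 0.476 FPKM in WT and 0.966 FPKM in the KO-labelled library. Of the 8, 2 were higher and 4 lower in the KO-labelled library, and *Elavl3* and *Elavl4* were listed at 0 in both. The highest single marker stood at 0.263 FPKM in WT and at 0.634 FPKM (*Nefl*, 0.010 FPKM in WT) in the KO-labelled library. On the longer list of 23 neuronal genes, 20 were below the filter, and those past it were *Tubb3*, *Map2* and *Rest*. *Rest*, which encodes a repressor of neuronal genes, was 6.53 FPKM in WT and 6.61 FPKM in the KO-labelled library.

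Nearest to *Stmn2* in log2 fold change, among genes averaging 5 FPKM or more, were *Igfbp2* and *Myod1*, at -5.93 each, 0.47 and 0.48 above *Stmn2*. Both were listed at 0 in the KO-labelled library, after 60.05 and 59.97 FPKM in WT. For a gene at 0 there, the log2 fold change is set by its WT level and the pseudocount alone. *Stmn2* was itself close to 0 there, so nothing about shared behaviour is read from this nearness. Nearest to *Tubb3* were *Jup*, which encodes the junction protein plakoglobin, at 20.7 and 1.43 FPKM, and *Cdh15*, which encodes the muscle cadherin M-cadherin, at 16.6 and 0.701 FPKM. The likeness is over 2 libraries, and it rests on 1 difference per gene.

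Each member was also set beside its neighbours on the chromosome. Within 5 Mb of *Stmn2* there were 12 other genes past the filter, with a median log2 fold change of 0.28. The nearest of them, *Mrps28*, lies 327 kb away (distances are between gene centres) and was 35.0 FPKM in WT and 52.9 FPKM in the KO-labelled library. *Pkia*, 1129 kb away, was the only one of the 12 more than 2-fold lower, at 21.7 and 7.79 FPKM, and 1 was more than 2-fold higher. After subtraction of the neighbours' median, *Stmn2* had a value of -6.69.

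*Tubb3* had 77 such neighbours, with a median of 0.33, and its own value was -3.58 after subtraction. The nearest genes past the filter on either side, *Tcf25* at 27.8 kb and *Def8* at 28.1 kb, had log2 fold changes of 0.43 and 0.16. *Cdh15*, at -559 kb, was 1 of 2 neighbours more than 2-fold lower, at -3.37, and 2 neighbours were more than 2-fold higher. Above 0 were 9 of the 12 neighbours of *Stmn2* and 65 of the 77 of *Tubb3*. *Mrps28*, *Pkia*, *Tcf25* and *Def8* are named after their values were seen.

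**Figure D5:**
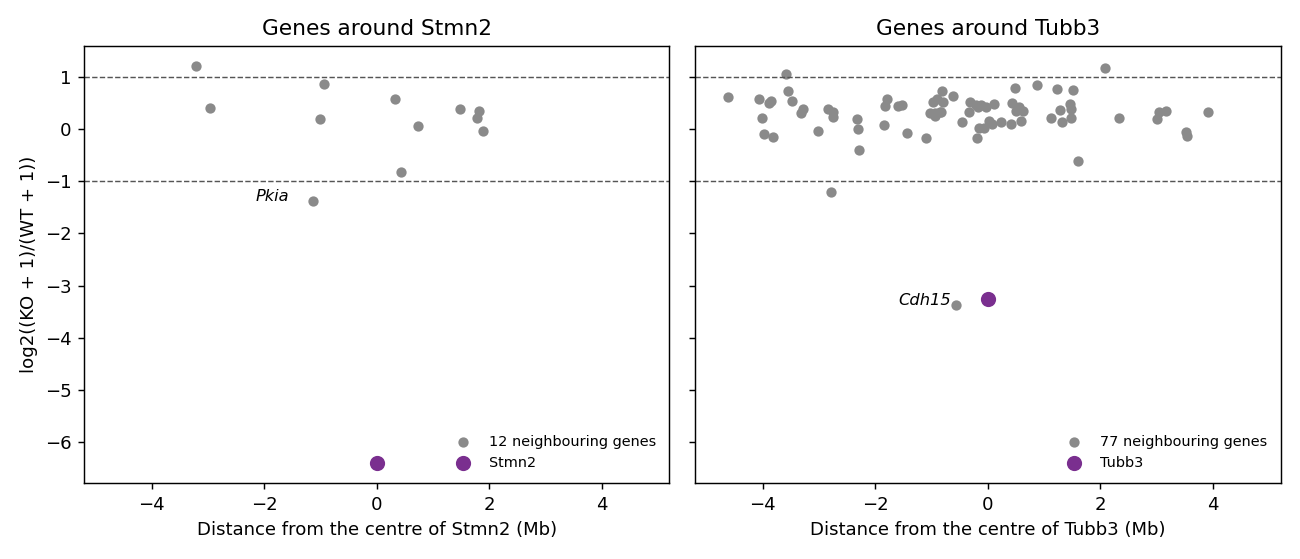
Log2 fold change of the genes past the filter within 5 Mb of *Stmn2* (left, 12 genes) and *Tubb3* (right, 77 genes) against their distance in Mb from the centre of that gene (purple), with dashed lines at 2-fold. Most neighbours lie above 0, *Stmn2* and *Tubb3* lie far below them, and *Cdh15* lies at the level of *Tubb3*.

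For *Tuba1a* the subtraction changed the sign of a small value. Its 98 neighbours on chromosome 15 had a median of -0.40, so that its value turned from -0.15 to 0.25 after subtraction. This shift was within 0.44, the width of the interquartile range of all genes. *Tuba1b* and *Tuba1c* had the same neighbours' median. *Tubb6*, on chromosome 18 from 67523585 to 67536773, had neighbours with a median of -0.10 and a value of 0.60 after subtraction. The other members past the filter stayed between -0.20 and 0.28.

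RefSeq promoter windows, from 250 bases before to 50 bases after the start in GRCm38.p6, were found for *Stmn3*, *Tubb2a*, *Tubb3*, *Tuba1a* and *Tuba4a*. The E-box letters CANNTG, the core bound by MyoD-family factors and many others, were searched on both strands. No window was found for *Stmn2*, which was therefore not searched. The *Tubb3* window held 0 matches and the other 4 held 1 each. Over all 32851 promoter windows of this length, 72.3% held at least 1. The narrower CAGCTG, contained in CANNTG, was in none of the 5 windows and in 16.3% of all.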

How the data were processed

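The samples were a WT and a *Gne* KO C2C12 library, 1 of each, grouped by the genotype in the labels. The values deposited by the authors, 1 for each symbol in each library, were read as FPKM, since no header names a unit and the columns sum to 568543 (WT) and 574253 (KO-labelled), not to a fixed total. The methods name TrimGalore, STAR and RSEM with GRCm39, and the submitters' processing notes name Trim Galore 0.6.6, STAR 2.7.9a and RSEM 1.3.3 with GRCm38, so the build behind the values is unsettled. Read numbers are unknown, and no counting interval is given.

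Of 21853 rows, 24 repeated a symbol and were dropped in favour of the row of higher mean, leaving 21829 genes. Changes were log2((KO + 1)/(WT + 1)), with a pseudocount of 1 FPKM, for the 10542 genes averaging 1 FPKM or more. With 1 library per line no test was possible, so genes were counted by size alone, beyond 1 on this scale in either direction. The procedure was tested on simulated data. Members and lists were chosen with earlier results of these data known. Named were the members, the other tubulins, up to 4 genes of each further list beyond 2-fold (otherwise the 2 of highest mean), the 2 genes nearest in change to each member beyond 2-fold, and *Gne*. Any other gene was named after its value was seen.

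Neighbours were genes past the filter within 5 Mb, by symbol in GENCODE vM39 (GRCm39), which placed 10171 genes. No protein table was used here, and coding sequences stand in its place. They were those of the canonical GENCODE vM39 transcripts. RefSeq promoters (GRCm38.p6) matched 5 of 10 members. The alternatives were pseudocounts of 0.1 and 5, median of ratios scaling, no filter, a filter at 5 FPKM, subtraction of the neighbours' median, summing of near-identical isotypes and summing of repeated rows. Python 3.11.15, numpy 2.4.6 and pandas 2.3.3 were used.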

Additional observations from a re-analysis of the deposited data

How the results depend on the processing

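No replicate could be left out, since each line has 1 library. No paired analysis was possible because neither line has a second library. Of the members, 2 were more than 2-fold lower and 0 higher under both other pseudocounts, the scaling, both other filters and the subtraction of neighbours. The members were not counted anew with isotypes or repeated rows summed. Over all genes, the 362 lower and 299 higher came to 176 and 102 when the pseudocount was 5. Under a filter at 5 FPKM, which tests fewer genes, they came to 221 and 145. Of the further tubulin and microtubule genes, 1 lower and 2 higher came to 0 and 0 at that pseudocount. Under the filter at 5 FPKM, 0 were lower, since *Map2* is then not tested, and with the neighbours' median subtracted 1 was higher, since *Tbcel* then had 0.79. *Stmn2* ranged from -9.09 to -4.22 and *Tubb3* from -4.04 to -1.94, both extremes being those of the pseudocounts of 0.1 and 5. *Stmn3* was -0.70 with a pseudocount of 0.1. The median of ratios gave a scaling factor of 1.005. A value was taken as moved when it shifted by more than 0.44, the width of the interquartile range of all genes, and a count when it shifted by more than 1.5 times. The unknown read number limits what can be said of levels near 0.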

Other observations

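Genes of the cell cycle, among which *Stmn1* is often counted because its protein regulates the mitotic spindle, were also described. All 18 listed genes were past the filter, 11 were higher and 7 lower in the KO-labelled library, and 0 were beyond 2-fold, beside 6.27% of all genes, with a median log2 fold change of 0.044. *Rrm2*, a subunit of ribonucleotide reductase, was 441 FPKM in WT and 268 FPKM in the KO-labelled library, and *Pcna*, the replication clamp, was 254 and 200.3 FPKM.

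Of 8 fibroblast markers, 4 were higher and 1 was lower in the KO-labelled library. Their summed level was 209.5 FPKM in WT and 160.7 FPKM in the KO-labelled library. On this list 2 were past the filter, *Pdgfra* at 10.8 and 12.3 FPKM and *Ly6a* at 198 and 146 FPKM, and 3 (*Lum*, *Thy1* and *Fap*) were listed at 0 in both libraries. Below the filter, *Dcn* was 0.272 and 1.681 FPKM, *Dpt* 0.041 and 0.493 FPKM and *Pi16* 0.068 and 0.085 FPKM. Of the 10 genes on the longer fibroblast list, which adds 2 collagens, 4 were past the filter. The 2 that were more than 2-fold higher were these collagens, *Col1a1* at 9.66 and 273 FPKM and *Col1a2* at 237 and 621 FPKM. Among the 7 filtered-in myoblast genes, *Myod1*, *Des*, *Cdh15* and *Chrna1* were more than 2-fold lower and *Myf5* was more than 2-fold higher. Over all genes past the filter, 3.43% were lower and 2.84% were higher by this measure. The part that the shifts in these listed genes play in *Stmn2* and *Tubb3* was not tested.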
